A study of Mus musculus with 16 samples.

Results

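To explore the subunits of the GABA-A receptor in the adult Arid1b-mutant cortex, the 7 genes Gabra2, Gabra3, Gabra4, Gabra5, Gabrb1, Gabrb2 and Gabrd were followed across the RNA-Seq libraries of 16 male C57BL/6N mice. The genes were chosen by name, and each matched 1 row among the 18424 genes of the table. All mice were sampled from the prefrontal cortex at postnatal day 120, with 1 mouse per library and 4 mice per group. WT-Veh and WT-Flx mice were wild type, whereas HT-Veh and HT-Flx mice were heterozygous in all cells for a protein-truncating mutation of Arid1b, whose product belongs to the chromatin-remodelling complex SWI/SNF. The heterozygotes came from male carriers crossed with WT females. All dams drank saccharin water (0.2%) from day 3 to day 21 after birth, and in the Flx groups it also held fluoxetine, a serotonin reuptake inhibitor, at 0.1 mg per ml, which reached the pups through the milk. The pups then had plain water, so the adults had been without the drug since day 21.

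GABA-A receptors are chloride channels that carry most of the fast inhibition of the cortex. Each channel is assembled from several subunits, and GABA binds where an alpha subunit meets a beta subunit. Gabra2, Gabra3, Gabra4 and Gabra5 encode alpha subunits, Gabrb1 and Gabrb2 encode beta subunits, and Gabrd encodes the delta subunit, which joins alpha subunits such as that of Gabra4 in receptors outside synapses that carry tonic inhibition.

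Gabra2, Gabra4 and Gabrb1 are neighbours on mouse chromosome 5 (GRCm38). Gabra2 lies at chr5:70957597-71095849 and Gabra4 at chr5:71569749-71658308, both on the minus strand. Gabrb1 lies at chr5:71658113-72149037 on the plus strand, so that it starts head to head with Gabra4 and the 2 annotated genes overlap by 196 bases. Gabra5 is at chr7:57407672-57510059 on the minus strand, Gabrb2 at chr11:42419757-42629028 on the plus strand, Gabra3 at chrX:72432681-72656848 on the minus strand and Gabrd at chr4:155384980-155398112 on the minus strand. No 31-base stretch was shared between the transcripts of any of the 21 pairs of these genes, read on their own strands. Against the opposite strand, 1 pair shared any (Gabra2 and Gabra3, 2 such stretches), and Gabra4 and Gabrb1 shared none.

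RefSeq promoter entries (GRCm38.p6) matched 6 of the 7 genes, all but Gabrd, with 10 start sites in all. The 250 bases before a start site are shown for the member whose level varied least between mice (Gabra2), the member that varied most (Gabrb2) and the member that moved in the opposite direction (Gabra5). Each window holds no annotated exon, and capitals mark CG pairs and the motif TATAAA.

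Gabra2, chr5:71095850-71096099, minus strand: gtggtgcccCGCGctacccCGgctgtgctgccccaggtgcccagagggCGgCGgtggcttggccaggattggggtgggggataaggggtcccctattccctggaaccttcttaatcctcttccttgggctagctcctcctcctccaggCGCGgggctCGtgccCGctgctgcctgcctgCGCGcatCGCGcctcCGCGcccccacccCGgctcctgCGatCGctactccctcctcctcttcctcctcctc

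Gabrb2, chr11:42420190-42420439, plus strand: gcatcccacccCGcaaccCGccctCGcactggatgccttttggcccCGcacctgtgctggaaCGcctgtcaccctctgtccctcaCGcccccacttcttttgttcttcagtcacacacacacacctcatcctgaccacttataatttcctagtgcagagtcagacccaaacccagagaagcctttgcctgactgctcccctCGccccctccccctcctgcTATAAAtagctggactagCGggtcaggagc

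Gabra5, chr7:57510060-57510309, minus strand: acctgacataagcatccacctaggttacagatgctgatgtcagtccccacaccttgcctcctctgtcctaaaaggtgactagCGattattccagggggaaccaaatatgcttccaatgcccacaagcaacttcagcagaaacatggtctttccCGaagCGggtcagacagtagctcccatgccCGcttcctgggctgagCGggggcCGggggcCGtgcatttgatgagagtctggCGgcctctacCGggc

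The Gabra2 window held 18 CG pairs, the Gabra5 window 9 and the Gabrb2 window 8, against a median of 6 over 32851 windows of the same length. The Gabrb2 window held TATAAA on its own strand, starting 30 bases before the start site. TATAAA in either orientation was present in 12.4% of all windows, and on the gene's own strand at 40 to 21 bases before the start in 1.87%. Neither the Gabra2 nor the Gabra5 window held these letters on either strand. Gabrb2 also had start sites downstream of the one shown, and the windows before them held these letters on neither strand. For Gabrb2 the motif was thus found only before the start site shown.

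Values were normalized read counts, and the depth behind them is unknown. The libraries differed in ways that the groups did not explain. A score of 10 olfactory bulb markers (mean log2 level) lay between 7.55 and 9.66 in 5 libraries, namely replicate 4 of HT-Veh, replicate 1 of WT-Veh and all of WT-Flx but replicate 3, and between 4.55 and 5.47 in the other 11. By group the score ran from 4.79 to 9.66 (WT-Veh), 5.47 to 9.22 (WT-Flx), 4.77 to 7.92 (HT-Veh) and 4.55 to 5.32 (HT-Flx). All 10 markers are in the table, and 2 of them are listed at 0 in some libraries with a low score, Barhl2 in 5 and Eomes in 1. In addition, WT-Veh replicate 1 and WT-Flx replicate 1 had a length trend. Their log2 deviation from each gene's median over all libraries changed by -0.180 and -0.177 per doubling of a gene's exon length, against -0.039 to 0.045 in the other 14 libraries. The mean scores of cortical glutamatergic neuron markers (11.92 to 12.54) and cortical GABAergic interneuron markers (10.80 to 11.27) were high in every library. Single interneuron markers went apart in WT-Veh replicate 1, with Gad1 at 19576 (7261 to 8208 in the other WT-Veh mice) and Lhx6 at 278 (506 to 560). A score of striatal projection neuron markers also varied, from 8.47 (HT-Flx replicate 3) to 10.96 (HT-Veh replicate 4). Arid1b averaged 2368 ± 432 normalized counts (SD, n = 4) without and 2159 ± 233 with the drug in WT mice, and 1795 ± 160 and 1636 ± 61 in HT mice. It was lower by 0.39 on the log2 scale over both treatments in HT (SE 0.08, adjusted p = 0.0969, limma over all genes), although WT-Veh replicate 1 (1787) and WT-Flx replicate 1 (1902) lay within the range of HT-Veh, 1619 to 2005.

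Per kilobase of exon, Gabra3 had the highest level of the 7 genes, with a mean of 1224 ± 104 normalized counts per kb (SD, n = 16). Gabra4 (549 ± 49.2), Gabrd (542 ± 57.5), Gabra2 (502 ± 36.1), Gabra5 (495 ± 93.8), Gabrb2 (466 ± 138) and Gabrb1 (340 ± 70.9) followed. The ranges of Gabra3 (1032 to 1442) and Gabra4 (450 to 624) did not overlap, whereas each later neighbour in this order overlapped with the next. The order depended on the length used, because Gabrb1 has 13838 bases of annotated exon of which 1422 are coding. Per kilobase of coding sequence Gabrb1 ranked 1 (3310 ± 690) and Gabra3 ranked 2 (3004 ± 256).

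The levels within each gene differed widely in how much they varied between mice. Gabra2 was the steadiest, with an SD of 0.10 on the log2 scale over 16 mice, lower than in all but 9.24% of the 12543 genes with a mean of at least 100. Gabra3 (0.12), Gabra4 (0.13) and Gabrd (0.16) also varied less than the median gene (0.18). Gabra5 (0.25), Gabrb1 (0.35) and Gabrb2 (0.56) varied more, and 98.4% of genes had a smaller SD than Gabrb2.

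**Figure D1:**
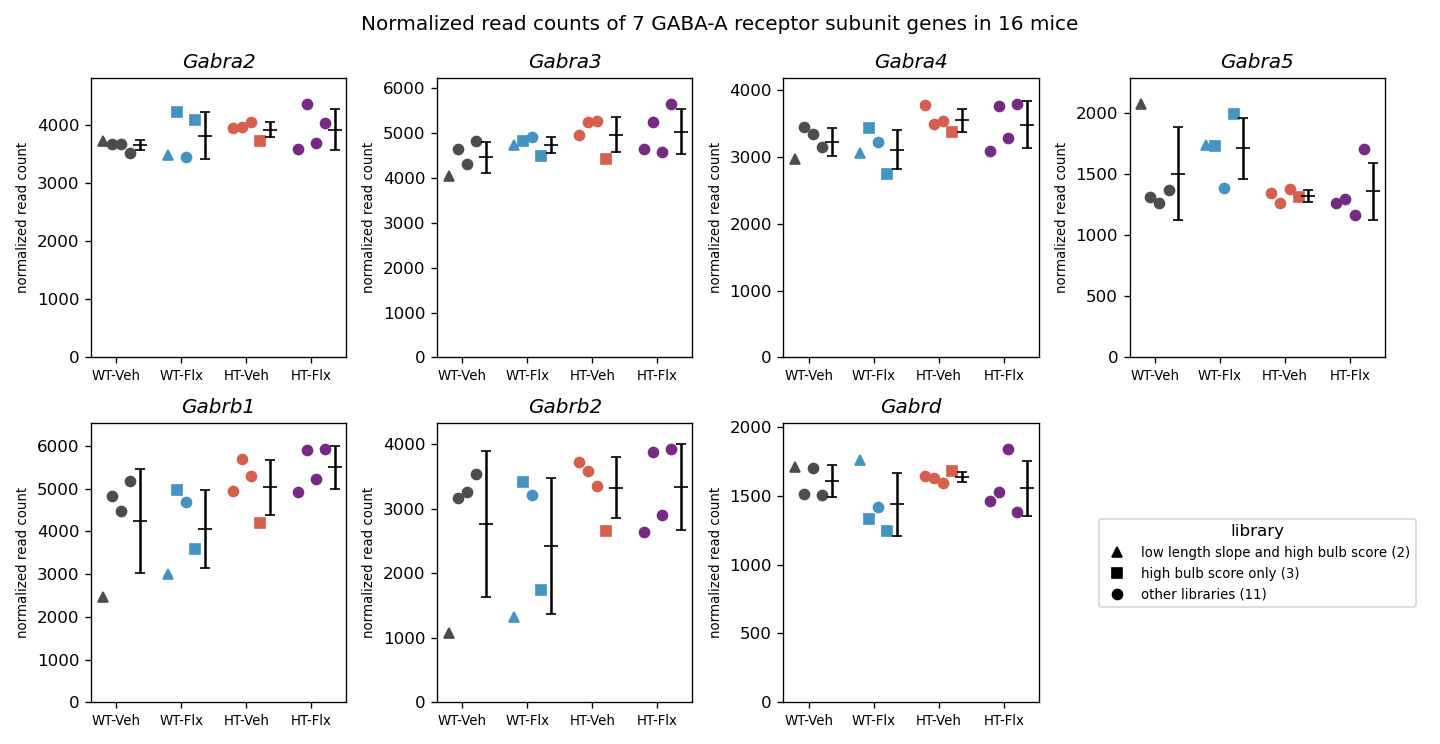
Normalized read count (vertical axis, starting at 0) of each gene in each mouse, by group, with replicates 1 to 4 from left to right and the group mean with SD beside them. Gabrb1 and Gabrb2 fall in the 2 libraries drawn as triangles, WT-Veh replicate 1 and WT-Flx replicate 1, whereas Gabra2 stays between 3459 and 4371 in all 16 mice.

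Gabrb2 encodes a beta subunit found in a large share of the receptors of the adult brain. Its normalized counts in replicates 1 to 4 were 1077, 3159, 3265 and 3538 for WT-Veh mice. WT-Flx mice had 1318, 3411, 3215 and 1734, HT-Veh mice 3717, 3577, 3351 and 2657, and HT-Flx mice 2643, 3883, 2902 and 3929. The 3 lowest values came from WT-Veh replicate 1, WT-Flx replicate 1 and WT-Flx replicate 4, and the remaining 13 mice lay between 2643 and 3929 with the groups overlapping.

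Gabrb1, the other beta subunit, followed the same libraries. WT-Veh mice had 2476, 4832, 4471 and 5185 normalized counts and WT-Flx mice 2999, 4964, 4679 and 3585. HT-Veh mice had 4951, 5695, 5296 and 4187 and HT-Flx mice 4921, 5909, 5234 and 5934. The same 3 WT libraries were lowest, and the lowest HT-Flx value (4921) lay just under the highest WT-Flx value (4964).

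Gabra5, an alpha subunit of receptors that lie largely outside synapses, went the other way. WT-Veh mice had 2074, 1308, 1262 and 1370 normalized counts and WT-Flx mice 1734, 1728, 1387 and 1990. HT-Veh mice had 1343, 1261, 1376 and 1311 and HT-Flx mice 1264, 1297, 1167 and 1701. Of the 5 libraries with a high bulb score, 4 had at least 1728, and HT-Veh replicate 4 had 1311. The other 11 libraries lay between 1167 and 1701.

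The other 4 genes were steadier. Gabra2 ranged from 3459 to 4371, Gabra3 from 4048 to 5659, Gabra4 from 2739 to 3796 and Gabrd from 1241 to 1840. Gabra3 averaged 4465 ± 351 and 4740 ± 179 normalized counts in WT mice without and with fluoxetine (SD, n = 4), and 4973 ± 396 and 5038 ± 508 in HT mice. Gabra4 averaged 3226 ± 206 and 3110 ± 291 in WT mice and 3545 ± 168 and 3484 ± 348 in HT mice, and Gabrd 1605 ± 115, 1437 ± 227, 1634 ± 35.2 and 1552 ± 201 in the same order. The groups of all 3 genes overlapped. For none of these 4 genes was the range over 16 mice more than 1.48-fold, against 3.65-fold for Gabrb2, 2.4-fold for Gabrb1 and 1.78-fold for Gabra5.

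In the 2 libraries with the length trend, the mean log2 level minus that of the other 14 was -1.40 for Gabrb2 and -0.86 for Gabrb1. Of 12541 genes, 0.478% had a difference as low as that of Gabrb2, and 2.04% one as low as that of Gabrb1. Gabra5 was higher by 0.44, and 6.44% of genes were as high. Gabra2 (-0.10), Gabra3 (-0.15), Gabra4 (-0.16) and Gabrd (0.18) differed less. Over all genes the median difference was 0.34 for those with under 2 kb of exon, 0.03 for those of 2 to 8 kb and -0.29 for those of 8 kb or more. Gabrb1 has 13.8 kb of exon, but Gabrb2 has 6.36 kb, and the difference of Gabra2 (7.64 kb) was -0.10. These 2 libraries were chosen by the length trend of all genes, so the values are a description. Both are WT and both have a high bulb score, and what sets them apart was not tested.

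**Figure D2:**
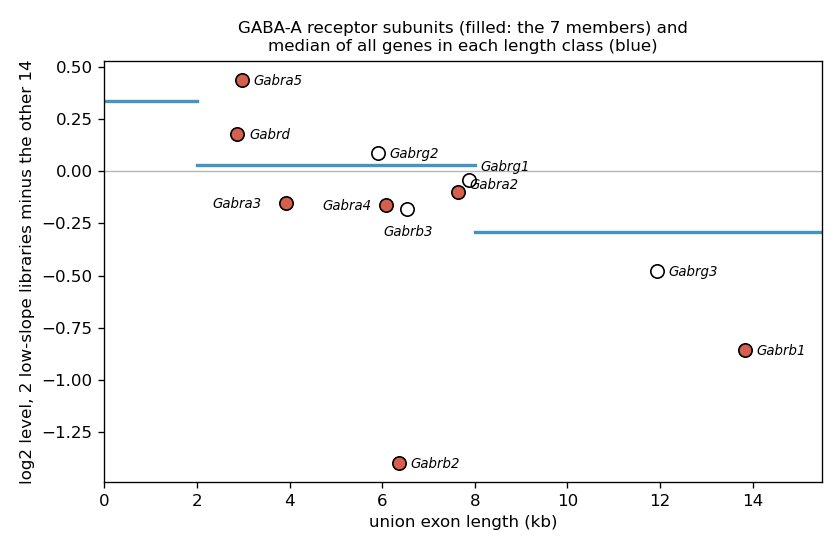
Difference in mean log2 level between the 2 libraries with the length trend and the other 14 (vertical axis) against union exon length in kb (horizontal axis), for the 7 genes (filled) and 4 other GABA-A subunit genes (open), with blue lines for the median of all genes in each length class. Gabrb2 lies at -1.40, far below the line of its length class at 0.03, and Gabrb1 at -0.86 below its line at -0.29.

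In the 3 libraries with a high bulb score and no length trend, from HT-Veh (replicate 4) and WT-Flx (replicates 2 and 4), the log2 level minus that of the 11 remaining libraries was -0.42 for Gabrb2, -0.30 for Gabrb1 and 0.31 for Gabra5. These 3 did not move together, since WT-Flx replicate 2 had ordinary values of Gabrb2 (3411) and Gabrb1 (4964) at a bulb score of 8.11. Within the 11 libraries with a low bulb score, no relation of a member with the score passed after adjustment (7 relations, random permutations). Gabrd had a Pearson's r of -0.63 (p = 0.0355, adjusted p = 0.194) and a Spearman's rho of -0.54 (p = 0.0935, adjusted p = 0.327), and r was -0.23 without the 2 samples farthest from the median score. Gabra5 had a Pearson's r of 0.58 (p = 0.0554, adjusted p = 0.194) and Spearman's rho of 0.67 (p = 0.0277, adjusted p = 0.194), and r was 0.43 without the same 2 samples.

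**Figure D3:**
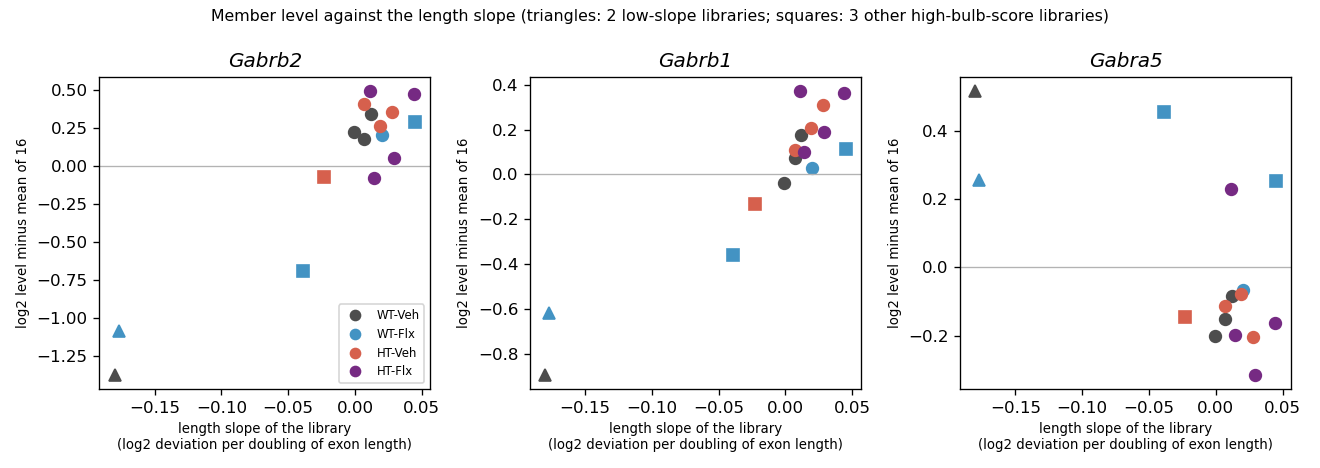
Log2 level minus the mean of 16 mice (vertical axis) for Gabrb2, Gabrb1 and Gabra5 against the length slope of each library (horizontal axis, log2 deviation per doubling of exon length), colored by group. The 2 triangles at -0.180 and -0.177 are the lowest points for Gabrb2 and Gabrb1, and WT-Flx replicate 4 (the blue square at -0.039) is the next lowest.

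Among these 11 libraries, 4 of the 21 pairs of members had a Pearson's r past the threshold after adjustment (random permutations). These 4 had r of 0.74 or more, which is 19% of the member pairs, and 1.28% of all 78657153 pairs of genes with a mean of at least 100 normalized counts had such an r in the same libraries. The cutoff of 0.74 is the lowest r of these 4 pairs, so it was set by the members themselves. All pairs share these libraries and their normalization, and the share is a description. They were Gabra2 with Gabra4 (r = 0.87, p = 0.00069, adjusted p = 0.0145), Gabra3 with Gabrb1 (r = 0.83, p = 0.00188, adjusted p = 0.0197), Gabra4 with Gabrb2 (r = 0.79, p = 0.0043, adjusted p = 0.0301) and Gabra2 with Gabrb1 (r = 0.74, p = 0.00948, adjusted p = 0.0498). By Spearman's rho (0.83, 0.75, 0.79 and 0.77) none of the 4 passed, with p from 0.00257 to 0.00974 and an adjusted p of 0.0511 each. Without the 2 samples farthest from the median of the gene named at the start of each pair, r was 0.89, 0.65, 0.63 and 0.66. Gabra5 and Gabrd went in opposite directions (r = -0.72, p = 0.0122, adjusted p = 0.0513, and -0.37 without the 2 farthest samples). The beta subunit genes Gabrb1 and Gabrb2 had r = 0.58 (p = 0.0629, adjusted p = 0.113). The 11 libraries come from all 4 groups, with WT-Flx present only as replicate 3. Group means were not removed, so differences between groups enter r.

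The genes whose pattern over the 16 samples was most like each member are given by Pearson's r on log2 levels, as a description. For Gabrb2 they were Atrn (0.986), Ttbk2 (0.986) and Tmod2 (0.983), and for Gabrb1 Tnr (0.979), Ids (0.976) and Adcy9 (0.975). The 50 genes most like Gabrb2 had a median of 9096 bases of exon and those most like Gabrb1 9490, against 4772 over all genes. For the other members this median was 8368 (Gabra4), 6976 (Gabra2), 6713 (Gabra3), 3515 (Gabra5) and 3158 (Gabrd). For Gabra5 they were Cfap36 (0.934), Nsmce4a (0.932) and Tfg (0.932). For Gabra4 they were Dnajc16 (0.933), Reps2 (0.907) and Mtpn (0.903), for Gabra3 Necab1 (0.895), Rab9b (0.894) and Grb10 (0.894), for Gabra2 Prkg1 (0.887) and Kcnd3 (0.865), and for Gabrd Gm10501 (0.867), Rnf208 (0.843) and Ncaph2 (0.840). All points share the same libraries, including the 2 with the length trend. Over the other 14 libraries r was 0.98, 0.96 and 0.94 for the genes of Gabrb2, and 0.95, 0.92 and 0.91 for those of Gabrb1. For the genes named for the other members it was 0.82 to 0.94. These genes were picked over all 16 libraries, so the values are a description too.

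To ask whether loss of 1 Arid1b copy changes these subunits without the drug, HT-Veh was compared with WT-Veh. None of the 7 genes passed the adjusted threshold of 0.05 (limma on log2(value + 1)), where 0.0178% of 16832 genes did, and none had an unadjusted p under 0.05, where 4.88% did. The smallest p was that of Gabra4, which averaged 3226 ± 206 normalized counts (SD, n = 4) for WT-Veh mice and 3545 ± 168 for HT-Veh mice, a log2 difference of 0.14 (SE 0.068, 95% interval -0.01 to 0.29, adjusted p = 0.922). Gabra2 was the only member whose groups did not overlap, with 3724, 3681, 3683 and 3528 normalized counts for WT-Veh against 3950, 3970, 4050 and 3736 for HT-Veh, where 2.06% of genes had all HT-Veh mice higher and 1.78% all lower. Its log2 difference was 0.10 (SE 0.056, 95% interval -0.02 to 0.23, adjusted p = 0.922).

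Gabrb2 and Gabrb1 had the largest log2 differences of the members in this comparison, 0.40 (95% interval -0.33 to 1.13, adjusted p = 0.922) and 0.29 (-0.17 to 0.76, adjusted p = 0.922). In this fit they rested on WT-Veh replicate 1. Without that mouse the differences were -0.01 (95% interval -0.23 to 0.22) and 0.05 (-0.16 to 0.26), and that of Gabra5 went from -0.15 (-0.47 to 0.16) to 0.01 (-0.12 to 0.14). Gabra3 (0.15) and Gabrd (0.03) differed by less than Gabrb1. Of the 7 genes, 6 were higher in HT-Veh, with a median of 0.14 against 0.01 over all genes. Among the other GABA-A subunit genes, 3 of the 6 tested were higher, with a median of 0.06. With the bulb score as a covariate, the log2 difference was 0.23 for Gabrb1 (95% interval 0.09 to 0.37, adjusted p = 0.21). For Gabrb2 it was 0.30 (0.06 to 0.54, adjusted p = 0.358). Both, with Gabra2, Gabra3 and Gabra4, had an unadjusted p under 0.05 in that limma fit, where 10.8% of all genes did. Without the high bulb score libraries Gabra2, Gabra3 and Gabra4 still did, where 10.9% did, but Gabrb1 (0.14) and Gabrb2 (0.10) did not. Gabra5 and Gabrd did not in either fit.

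To ask whether early fluoxetine changes the subunits in mutants, the HT groups were set against each other (HT-Flx minus HT-Veh). None of the 7 genes passed, where 0% of 16814 genes did, and none had an unadjusted p under 0.05, where 3.07% did. No member's groups separated, where 0.934% of genes were higher in all HT-Flx mice and 1.05% lower. Gabrb1 had the smallest p, with 5032 ± 641 in HT-Veh and 5500 ± 504 in HT-Flx, a log2 difference of 0.13 (95% interval -0.08 to 0.35, adjusted p = 1 in limma). The other 6 differences lay between -0.08 (Gabrd) and 0.02 (Gabra3 and Gabra5). The interval of Gabra2, the steadiest member, was -0.16 to 0.15, and that of Gabrb2 was -0.31 to 0.30.

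In WT mice, fluoxetine was likewise without a change past the threshold. None of the 7 genes passed in WT-Flx against WT-Veh, where 0% of 16833 genes did, and none had an unadjusted p under 0.05, where 4.2% did. No member's groups separated, where 1.81% of genes were higher in all WT-Flx mice and 1.09% lower. The log2 differences were 0.20 for Gabra5 (95% interval -0.17 to 0.58), -0.17 for Gabrd (-0.43 to 0.09), -0.16 for Gabrb2 (-1.07 to 0.75), 0.09 for Gabra3, 0.06 for Gabra2, -0.06 for Gabra4 and -0.04 for Gabrb1 (-0.56 to 0.49). Both groups hold a library with the length trend. Without these 2, the log2 difference was -0.31 for Gabrb2, -0.14 for Gabrb1 and 0.36 for Gabra5 (SE 0.12, adjusted p = 0.231). Gabrd was at -0.24 in that fit (95% interval -0.43 to -0.05, adjusted p = 0.245). The WT-Flx mice that remained included 2 with a high bulb score.

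The genotypes were then compared after fluoxetine. None of the 7 genes passed in HT-Flx against WT-Flx, where 0.0417% of 16788 genes did, and 2 of 7 had an unadjusted p under 0.05, where 10.4% did. These were Gabrb1, at 4057 ± 922 in WT-Flx and 5500 ± 504 in HT-Flx (log2 difference 0.46, SE 0.15, 95% interval 0.14 to 0.78, adjusted p = 0.355), and Gabra5, at 1710 ± 248 and 1357 ± 235 (-0.34, SE 0.14, 95% interval -0.64 to -0.04, adjusted p = 0.438). Gabrb2 differed by 0.56 (95% interval -0.03 to 1.14, adjusted p = 0.493). No member's groups separated, where 2.7% of genes were higher in all HT-Flx mice and 3.13% lower. High bulb scores were found in 3 of the 4 WT-Flx libraries (7.55 to 9.22) and in none of HT-Flx (4.55 to 5.32). The scores of these 2 groups did not overlap, so a fit with the score as a covariate cannot separate score from genotype. In that fit the log2 difference was 0.30 for Gabrb1 (95% interval -0.23 to 0.83), 0.15 for Gabrb2 (-0.78 to 1.09) and 0.04 for Gabra5 (-0.36 to 0.45). That of Gabra2 went from 0.04 to 0.23 (-0.11 to 0.58). Of all genes, 2.07% had an unadjusted p under 0.05 in this limma fit, against 10.4% without the covariate. The part of the bulb score in these differences was not tested otherwise.

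**Figure D4:**
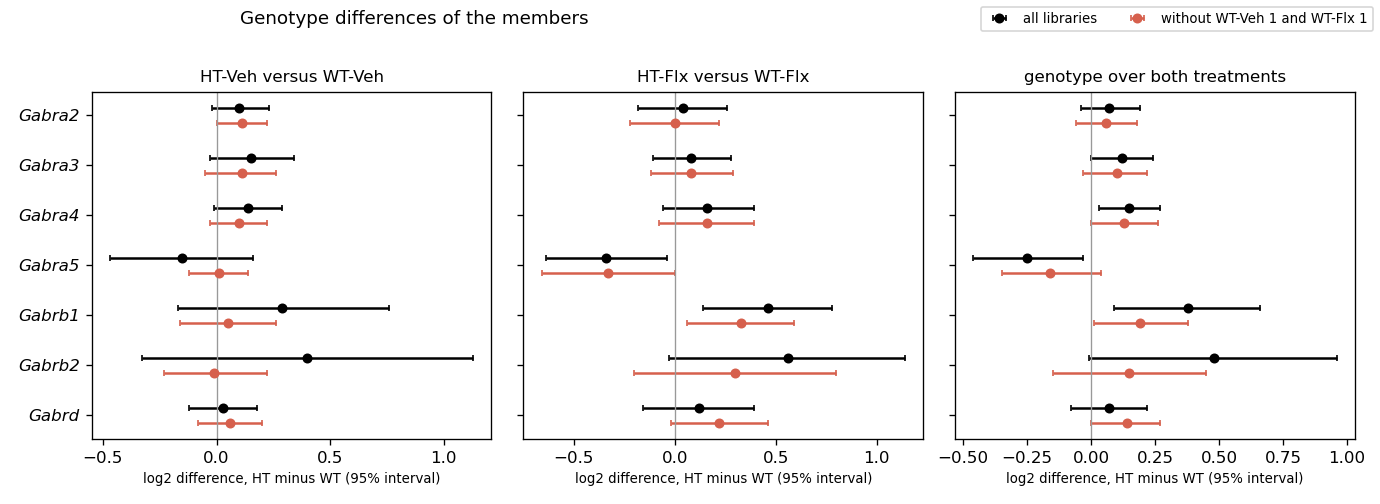
Log2 difference, HT minus WT, of each member (horizontal axis) with its 95% interval, in HT-Veh versus WT-Veh, HT-Flx versus WT-Flx and genotype over both treatments, with all libraries (black) and without WT-Veh replicate 1 and WT-Flx replicate 1 (red). Without them Gabrb2 goes from 0.40 to -0.01 in the vehicle groups and from 0.48 to 0.15 over both treatments, while Gabra4 goes from 0.15 to 0.13.

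Genotype was also fitted over both treatments in all 16 mice. None of the 7 genes passed, where 0.0398% of 17567 genes did, and 3 of 7 had an unadjusted p under 0.05, where 11.9% did. They were Gabrb1 (log2 difference 0.38, SE 0.14, adjusted p = 0.349), Gabra4 (0.15, SE 0.059, adjusted p = 0.387) and Gabra5 (-0.25, SE 0.10, adjusted p = 0.391). Gabrb2 differed by 0.48 (adjusted p = 0.426), Gabra3 by 0.12 (adjusted p = 0.43), Gabra2 by 0.07 and Gabrd by 0.07. Without WT-Veh replicate 1 and WT-Flx replicate 1 the differences were 0.19 for Gabrb1, 0.13 for Gabra4, -0.16 for Gabra5 and 0.15 for Gabrb2, and among the 11 libraries with a low bulb score they were 0.17, 0.12, -0.01 and 0.07. Other members differed more in these fits than in all 16 mice. Gabrd was at 0.14 without WT-Veh replicate 1 and WT-Flx replicate 1 (95% interval 0.00 to 0.27, adjusted p = 0.605), and Gabra2 at 0.15 among the 11 libraries (0.03 to 0.27, adjusted p = 0.701). No adjusted p was under 0.05 with or without them.

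For fluoxetine over both genotypes, none of the 7 genes passed, where 0% of 17567 genes did, and none had an unadjusted p under 0.05, where 3.11% did. The log2 differences ran from -0.13 for Gabrd (SE 0.073, 95% interval -0.28 to 0.03, adjusted p = 1) to 0.11 for Gabra5. For the interaction, the fluoxetine change in HT minus that in WT, again none of the 7 passed, where 0% of genes did, and none had an unadjusted p under 0.05, where 4.29% did. Its values ran from -0.18 for Gabra5 (95% interval -0.62 to 0.26) to 0.17 for Gabrb1 (-0.41 to 0.75), and the interval of Gabrb2 (-0.84 to 1.15) was the widest.

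The rest of the GABA pathway was described by 5 lists. None of their genes passed the adjusted threshold in any of the 7 comparisons (limma). At an unadjusted p under 0.05 there were 3 genes higher and 3 lower of 44 in HT-Flx versus WT-Flx, 1 higher and 6 lower of 44 for genotype over both treatments, 1 higher of 44 for the interaction and 0 in the other 4 comparisons. Over all genes tested, 10.4%, 11.9% and 4.29% had such a p in these 3 comparisons, and 3.07% to 4.88% in the other 4. Of 12 other GABA-A subunits at most 7 had enough signal to be tested. The 2 with the smallest p were Gabrr2, a rho subunit with a mean of 11.8 normalized counts (-1.24 for genotype over both treatments, SE 0.34, adjusted p = 0.254), and Gabrg3, a gamma subunit (0.26 in HT-Flx versus WT-Flx, SE 0.11, adjusted p = 0.463). Among 23 tested genes for anchoring and trafficking, they were Gphn, the scaffold gephyrin (-0.18 for genotype, SE 0.07, adjusted p = 0.38), and Gabarap (-0.29 in HT-Flx versus WT-Flx, SE 0.10, adjusted p = 0.387). Without the 2 libraries with the length trend Gphn and Gabarap became -0.11 and -0.21, while Gabrr2 was at -1.48 and Gabrg3 at 0.22. Among the 11 libraries with a low bulb score Gabrr2 was at -1.69.

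Among the 7 genes for GABA synthesis, transport and breakdown, the smallest p-values were those of Slc6a11, a GABA transporter of astrocytes (-0.29 for genotype, SE 0.12, adjusted p = 0.391), and Gad1, which makes GABA (-0.46, SE 0.19, adjusted p = 0.391). Among the 11 libraries with a low bulb score these differences were -0.07 and -0.14, and without the 2 libraries with the length trend -0.25 and -0.33. Among 5 GABA-B receptor genes, the smallest p-values (limma) were those of Kctd16, an auxiliary subunit (0.98 in HT-Flx versus WT-Flx, SE 0.31, adjusted p = 0.347), and Gabbr2 (0.18, SE 0.09, adjusted p = 0.506). Without the 2 libraries with the length trend they were at 0.76 and 0.19. With the bulb score as a covariate they were at 0.28 (SE 0.44) and -0.05 (SE 0.13). That fit cannot separate score from genotype, since the scores of these 2 groups do not overlap. Of the chloride transporters that set the driving force of the channel, Slc12a5 had an interaction of 0.19 (SE 0.09, adjusted p = 0.998) and Slc12a2 a fluoxetine difference of 0.07 (SE 0.08, adjusted p = 1). Without the 2 libraries with the length trend these were 0.22 and 0.12. In bulk tissue, fewer cells of a type and less RNA per cell cannot be told apart.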

How the data were processed

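Paired-end reads of stranded, poly-A-selected libraries were quantified by the authors with Salmon (version 1.1.0, GC bias correction) against GRCm38, imported per gene with tximport and divided by DESeq2 (version 1.30.1) size factors. The deposited signal is thus a normalized read count. Its values were not whole numbers, so no count model was used and depth is unknown. The annotation release and Salmon's strand setting are not given in the sources used here, so reads where Gabra4 and Gabrb1 overlap may have been shared.

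R 4.3.3 and its package limma (3.58.1, eBayes with a trend) were used here on log2(value + 1), over genes with at least 10 in at least 4 samples of the fit, two-sided, with Benjamini-Hochberg adjustment over all genes tested and a threshold of 0.05. A log2 difference on this scale understates changes of low genes. Pairwise fits held only their 2 groups. Alternatives were pseudocounts of 0.1 and 8, no filter, a mean of at least 100, upper-quartile and quantile scaling, sample quality weights, a joint fit of all 4 groups, the replicate block, the bulb score or the length slope as a covariate, and leaving out libraries. Code was tested on simulated data. Exon lengths came from GENCODE (GRCm38). The length slope is the least-squares slope of a library's log2 deviation on log2 union exon length over 12541 genes, and libraries over 0.1 below the median slope were set apart. Libraries with a bulb score over 2 above the lowest were called high. Relations were planned over 16 samples but are given within the 11 libraries with a low bulb score, because the samples form clusters, with 100000 random permutations. Members were named in every comparison, with the 3 most alike genes each (1 of these is not reported here), and for each list the 2 genes with the smallest p over the 7 comparisons. The members and lists were chosen with earlier results of these data known. Groups and replicate numbers came from the sample titles. Nothing there says that a number pairs mice, and same-numbered mice of different groups had deviations that correlated by -0.31 to 0.42. Litters and dams are not stated, so p-values set differences only against the spread between these mice. Fluoxetine was given to the dams, and the fits took each mouse as independent. Fewer dams than mice may thus stand behind a group.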

Additional observations from a re-analysis of the deposited data

Results flagged for a closer look

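Within groups of 4 mice, 4 of 36 sets of values had an end value far from the rest by Dixon's criterion, where chance gives about 1 in 20. All 4 belong to WT-Veh replicate 1. They are Gabrb2 (1077, against 3159 to 3538 in the other 3 mice), Gabra5 (2074, against 1262 to 1370), the length slope (-0.180, against -0.001 to 0.012) and the bulb score (9.66, against 4.79 to 5.08). The cause was not tested.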

How the results depend on the processing

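Across all alternatives, 0 of the 7 members passed the threshold in any comparison, and the smallest adjusted p was 0.171. Of 1148 log2 differences recomputed, 44 had the opposite sign to the reported fit at 2 decimals, and the other 1104 did not. A difference that rounds to 0 in either fit was not counted as a change. The replicate block left the count of members past the threshold at 0 in every comparison and, since the numbers belong to different mice, is no pairing. The fits without the high bulb score libraries were planned where each group keeps at least 2 mice, and were not run for the 2 comparisons with WT-Flx and the interaction, where 1 WT-Flx mouse remains. The genotype and fluoxetine fits over both levels of the other factor used the 11 remaining mice. The length slope as a covariate and leaving out WT-Veh replicate 1 and WT-Flx replicate 1 together were chosen after seeing the data.

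Direction changed as follows. In HT-Veh versus WT-Veh, Gabra5 became 0.01 without the high bulb scores, without the length-trend libraries and with the length slope, and Gabrb2 became -0.01 without the length-trend libraries and -0.02 with the length slope. In HT-Flx versus HT-Veh, Gabra3 became -0.01 (quantile normalization), -0.03 (quality weights and bulb covariate) and -0.04 (without high bulb scores, and length slope). In WT-Flx versus WT-Veh the bulb covariate gave 0.20 for Gabrb1 and 0.27 for Gabrb2. In HT-Flx versus WT-Flx, Gabra2 became -0.02 (quantile) and -0.01 (length slope), and the bulb covariate gave 0.04 for Gabra5 and -0.07 for Gabrd. That covariate cannot be separated from genotype in this comparison. For fluoxetine over both genotypes, Gabrb1 became -0.02 (quality weights) and Gabra2 -0.04 (without high bulb scores). For the interaction, Gabra4 became -0.01 (quantile), and the bulb covariate gave -0.04 for Gabra4, 0.07 for Gabra5, -0.16 for Gabrb1 and -0.40 for Gabrb2. The cause was not tested.

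With each mouse left out in turn, the differences that changed direction ranged as follows. In HT-Veh versus WT-Veh, Gabra5 ran from -0.23 to 0.01 and Gabrb2 from -0.01 to 0.56. In HT-Flx versus HT-Veh, Gabra3 ran from -0.04 to 0.06, Gabra4 from -0.07 to 0.03 and Gabra5 from -0.09 to 0.09. Gabra2 and Gabrb2, which round to -0.00 in that reported fit, ran from -0.06 to 0.04 and from -0.11 to 0.10. They were not counted as changes. In WT-Flx versus WT-Veh, Gabrb1 ran from -0.28 to 0.10 and Gabrb2 from -0.57 to 0.09, with the ends set by WT-Veh replicate 1 and WT-Flx replicate 1. In HT-Flx versus WT-Flx, Gabra2 ran from -0.01 to 0.09. For fluoxetine over both genotypes, Gabrb1 ran from -0.06 to 0.12 and Gabrb2 from -0.26 to 0.04. For the interaction, Gabra4 ran from -0.03 to 0.08 and Gabrb2 from -0.10 to 0.56.

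The number of all genes past the threshold ran from 0 to 21 in HT-Veh versus WT-Veh (3 in the reported fit), 0 to 23 in HT-Flx versus WT-Flx (7), 1 to 23 for genotype (7) and 0 to 12 in WT-Flx versus WT-Veh (0). With coding length Gabrb1 ranked 1, and with the longest transcript it ranked 7. Depth is unknown, so no interval covers counting error.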
